A study of Homo sapiens with 4 samples.

Results

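KDR cells are the human pluripotent stem cells (hPSC) of a single-cell transcriptome library in which at least 1 UMI (a tagged RNA molecule) of KDR was counted. Among 13862 hPSC cells that held 3000 UMIs or more, no more than 20% of them mitochondrially encoded, 1864 were KDR cells, and the other 11998 cells with 0 KDR UMIs served for comparison. The whole series held 31693 transcriptome barcodes, 15333 of them in the hPSC library. Membership was set by the KDR count itself, so KDR levels are given as a description. The cell that only just belongs has 1 KDR UMI, as 1490 of the 1864 members do.

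All cells came from a pooled CRISPR screen in a line labelled H9, a human embryonic stem cell line. The cells carried a lentiviral library of guide RNAs with EGFP and 22-nucleotide barcodes, and a second lentivirus with Cas9 and mCherry. They had been sorted on fluorescence and grown for 1 week, and the ectoderm group had then been induced towards ectoderm, per the labels. Each state was profiled as 1 transcriptome library with 1 amplicon library that ties cells to guides. The hPSC group is therefore a mixture of cells with guides against many genes, from 1 library, and the labels' protocol mentions the induction for hPSC as well. In a check of expression against the labelled line, 2 of 2 transcriptome libraries did not match it. The libraries shared 78 cell barcodes, of which 69 were in the hPSC cells kept and 6 in KDR cells. With 1 library per state there is no replicate, no test and no p-value, and every interval covers counting error only.

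KDR encodes VEGF receptor 2, the receptor tyrosine kinase through which VEGFA drives the growth and survival of endothelial cells. In development it is an early marker of mesoderm that gives rise to blood and vessels, and undifferentiated human pluripotent cells are also known to carry some KDR RNA. FLT1 encodes VEGF receptor 1, which binds VEGFA tightly with little kinase activity and is often described as a decoy.

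KDR (ENSG00000128052) lies on the minus strand of chromosome 4 at 55078259 to 55125595 on GRCh38. The windows of 250 bases before the RefSeq starts of KDR and FLT1 on GRCh38.p14 are shown because FLT1 is the VEGF family gene called higher in KDR cells below. KDR's window is chr4:55125596-55125845 and FLT1's is chr13:28495129-28495378, both on the minus strand and printed 5′ to 3′ on the gene's strand. Capitals mark GGGCGG or its reverse complement (the GC box), TATAAA and CCAAT, each searched on both strands with overlapping matches allowed.
KDR: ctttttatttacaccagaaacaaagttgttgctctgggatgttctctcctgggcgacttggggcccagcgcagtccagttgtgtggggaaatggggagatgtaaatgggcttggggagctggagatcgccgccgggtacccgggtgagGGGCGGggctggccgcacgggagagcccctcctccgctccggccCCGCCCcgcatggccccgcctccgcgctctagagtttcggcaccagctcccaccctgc
FLT1: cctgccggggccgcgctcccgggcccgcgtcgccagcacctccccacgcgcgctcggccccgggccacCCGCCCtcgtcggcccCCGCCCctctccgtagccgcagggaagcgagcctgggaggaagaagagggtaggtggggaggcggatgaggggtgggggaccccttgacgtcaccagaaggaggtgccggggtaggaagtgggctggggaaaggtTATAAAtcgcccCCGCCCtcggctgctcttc
KDR's window held 2 GC boxes, 0 TATAAA and 0 CCAAT, and FLT1's held 3 GC boxes, 1 TATAAA and 0 CCAAT. Over all 35116 RefSeq windows of this length, 42.6% held a GC box, 10.7% TATAAA and 32.0% CCAAT. G and C made up 65.2% of KDR's window and 73.2% of FLT1's.

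KDR was counted in 13.4% of the hPSC cells (12.88% to 14.03%, exact Clopper-Pearson 95% interval), with 2358 UMIs or 29.7 CPM (UMIs scaled to a common total for all cells summed; 28.5 to 30.9). In the ectoderm library under the same filters, 254 of 13298 cells (1.91%, 1.68% to 2.16%) held 261 KDR UMIs, or 3.13 CPM (2.76 to 3.54). Median depth was 5040.5 UMIs per cell in hPSC and 5188 in ectoderm. With each cell thinned to 3000 UMIs the shares were 7.75% and 0.895%. The share of KDR cells followed depth: it was 7.71% in the shallowest decile of hPSC cells and 24.9% in the deepest, while the KDR level ran between 26.8 and 32.6 CPM over the 10 deciles. KDR cells had a median of 5886.5 UMIs and 0-KDR cells 4941, which is why each KDR cell was compared with 0-KDR cells of its own decile.

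**Figure D1:**
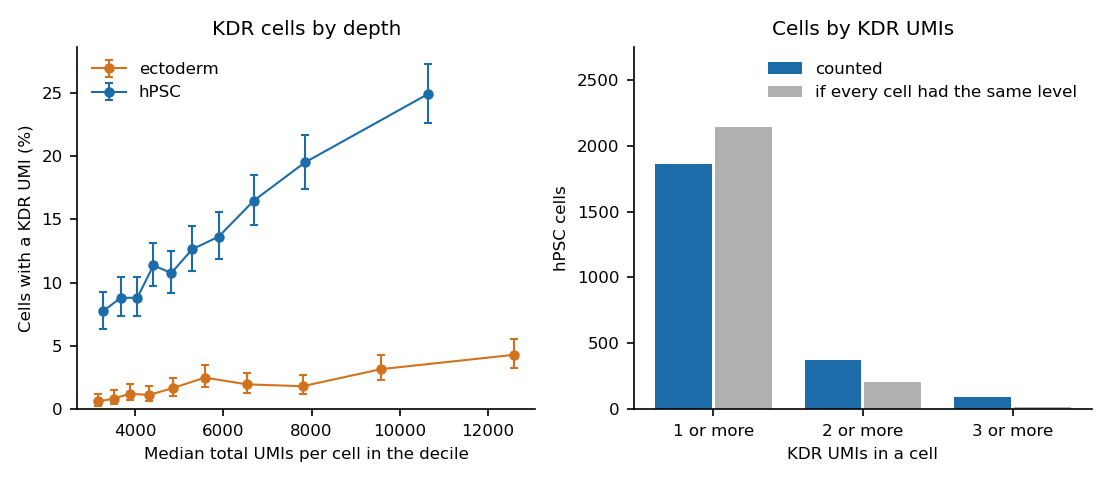
Left, the percent of cells with a KDR UMI (vertical axis) in each decile of total UMIs, placed at the decile's median UMIs per cell, for the hPSC (blue) and ectoderm (orange) libraries, with exact 95% intervals. Right, hPSC cells with 1 or more, 2 or more and 3 or more KDR UMIs (blue) beside the numbers expected if every cell had the same KDR level (grey); 374 cells had 2 or more where 201.95 were expected.

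KDR RNA was spread unevenly between cells of like depth. If all cells had held KDR at the library's mean level, 2140 cells would carry at least 1 UMI, 202 at least 2 and 15.4 at least 3, against 1864, 374 and 93 counted. The highest count was 6 UMIs, in 3 cells. KDR's variance over its depth-adjusted mean (the dispersion index) was 1.33. The median over 1479 genes of nearly the same level was 1.01, and 4 of these genes lay above KDR. In the ectoderm library 247 of the 254 KDR cells had exactly 1 UMI, and the other 7 had 2.

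For every other gene, the UMIs counted in KDR cells were set against the number expected from 0-KDR cells of the same deciles, as a log2 ratio with the exact Poisson 95% interval of the KDR cells' count. A gene at 20 CPM or more in either set was called higher or lower by size alone, at a log2 ratio of 0.3 or more in size. Of 5931 such genes, 105 were higher (1.77%) and 45 lower (0.759%), or 150 in all (2.53%). These shares are the background for the counts of each gene list below. The median ratio over all of them was -0.00091 and 90% of genes lay between -0.16 and 0.21. Without the deepest decile 158 genes were higher and 74 lower. With only the 374 cells of 2 or more KDR UMIs as members, 556 were higher and 314 lower. That set is smaller than the 1864 KDR cells and carries more counting error. Its counts are therefore no measure of a stronger difference. Of the 105 higher genes, 50 had a ratio above 0 in all 10 deciles, and of the 45 lower genes 26 were at or below 0 in all 10. The deciles hold the same cells that set the calls. Decile counts, here and below, are therefore a description and no independent check.

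**Figure D2:**
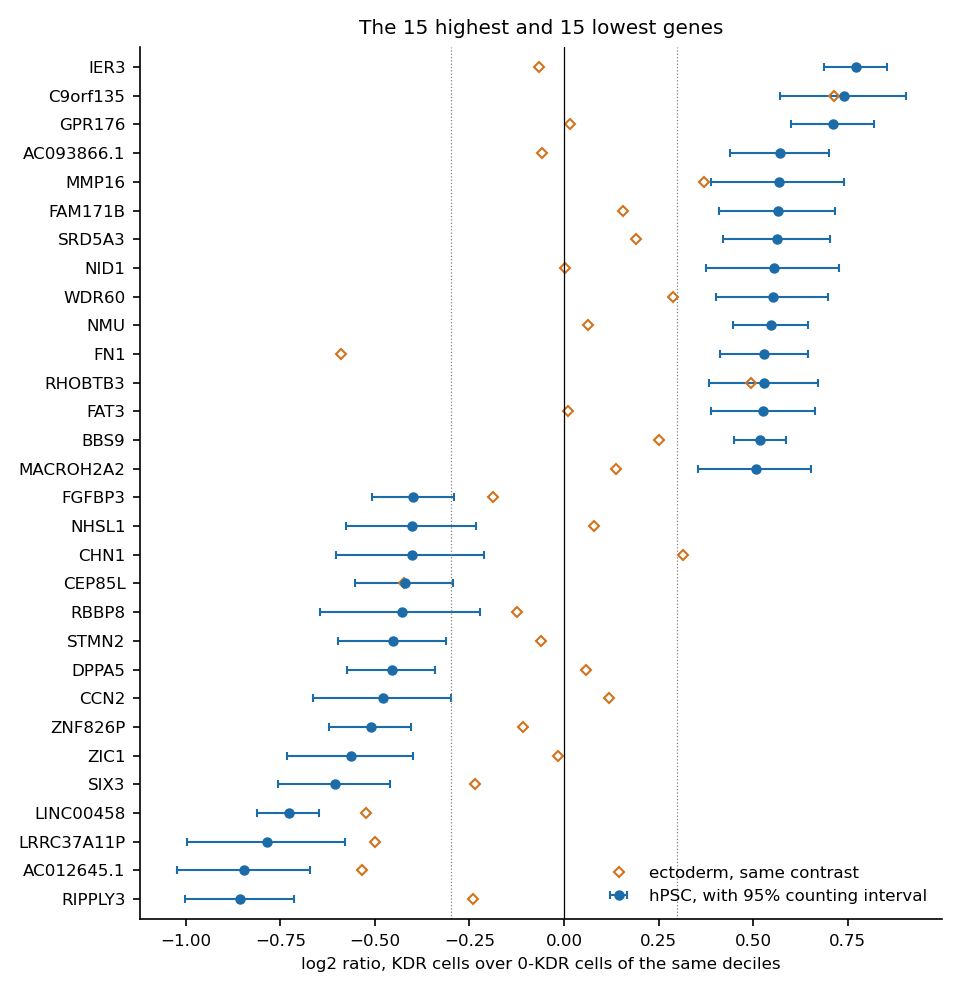
log2 ratio (horizontal axis) of the 15 highest and 15 lowest genes in hPSC KDR cells over matched 0-KDR cells, with 95% counting intervals (blue circles), and the same contrast in the ectoderm library (orange diamonds, no interval drawn). Dotted lines mark 0.3 in size; the hPSC ratios run from 0.77 for IER3 to -0.86 for RIPPLY3, and several ectoderm values lie near 0.

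FLT1 was the one member of the VEGF family that reached the level minimum, and it was higher in KDR cells. It stood at 38.1 CPM (475 UMIs) against 30.4 CPM in matched cells, a log2 ratio of 0.33 (0.19 to 0.46), and 21.4% of KDR cells held a FLT1 UMI against 17.4% of matched cells. FLT1's ratio was above 0 in 7 of 10 deciles. With every cell weighted equally it was 0.29, short of the size rule, and under the other 11 alternatives it stayed past it. The third receptor, FLT4, had 22 UMIs where 20.5 were expected. Of the co-receptors, NRP1 had 0 UMIs where 1.64 were expected, and NRP2 had 201 where 243 were expected (-0.28, -0.48 to -0.077). The ligand VEGFA stood at 12.2 CPM against 13.8 (-0.18, -0.42 to 0.049). VEGFB had 105 UMIs where 89.9 were expected and VEGFC 13 where 15.6 were. PGF, a ligand of FLT1 but not of KDR or FLT4, had 34 UMIs where 56.7 were expected (-0.74, -1.27 to -0.26). VEGFD had 0 where 0.851 were expected.

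Of 29 signalling genes downstream of the receptor, 14 reached the level minimum, and of these 0 were higher and 0 lower (median 0.026, 9 above 0). Over all tested genes 2.53% were called, so 0 of 14 lies near that share. The adaptors SHC1 (74.5 against 72.5 CPM) and GRB2 (90.6 against 91.1 CPM) stood close to matched cells, as did the kinase AKT1 (30.6 against 31.9 CPM). The highest of the 14 was PIK3R1, the regulatory subunit of PI3-kinase, at 22.3 against 19.5 CPM (0.19, 0.020 to 0.36). It was followed by the phosphatase PTPN1 (0.18), the adhesion protein CTNNB1 (0.15) and focal adhesion kinase PTK2 (0.13). AKT1 (-0.057) was lowest. Below the level minimum, PLCG1, which binds the activated receptor, had 154 UMIs where 171 were expected. The Src family kinase FYN had 203 where 159 were expected (0.35, 0.15 to 0.55). PRKCB, a protein kinase C, had 38 where 18.2 were expected (1.07, 0.57 to 1.52). SH2D2A, the adaptor TSAd, had 28 where 46.1 were expected (-0.72, -1.31 to -0.19), and NOS3, the endothelial nitric oxide synthase, had 20 where 16.3 were.

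Among KDR's neighbours on chromosome 4, 7 of 15 reached the level minimum, and 2 were higher, 0 lower (median 0.036). Of all tested genes 1.77% were higher and 0.759% lower. SRD5A3, which makes the lipid carrier for protein glycosylation, stood at 33.0 CPM in KDR cells against 22.4 (0.56, 0.42 to 0.70). NMU, which encodes the neuropeptide neuromedin U, stood at 66.1 against 45.2 CPM (0.55, 0.45 to 0.65). Both lay above 0 in 10 of 10 deciles. On GRCh38 SRD5A3 spans 55346109 to 55373096 and NMU 55595229 to 55636698, with TMEM165 and CLOCK between them. TMEM165 stood at 80.1 against 79.7 CPM and CLOCK, the circadian transcription factor, at 31.7 against 31.8 CPM, so higher levels were not shared by all genes beside KDR. The receptor kinases that precede KDR in the cluster did not reach the level minimum: KIT had 125 UMIs where 152 were expected (-0.29, -0.55 to -0.033) and PDGFRA 5 where 10.9 were. The other neighbours ran from USP46 (-0.049) to EXOC1 (0.083) among those at the level minimum, with CHIC2 (0.15), LNX1 (0.19), CEP135 (0.27), SCFD2 (-0.15), PDCL2 (6 UMIs) and GSX2 (1 UMI) below it.

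KDR cells held almost no RNA of mesoderm or vessel genes. Of 19 mesoderm genes 0 reached the level minimum. Their sum was 380 UMIs or 30.5 CPM in KDR cells against 30.1 CPM in matched cells (0.019, -0.13 to 0.16), and 2 WNT ligands, WNT3 with 131 UMIs and WNT5A with 116, made up most of it. TBXT (Brachyury, the defining gene of the primitive streak), HAND1, APLNR, FOXF1, MSGN1, SNAI2 and HAND2 had 0 UMIs. MIXL1 had 13, EOMES 2, GSC 7 and TBX6 18. MESP1 had 32 where 36.5 were expected, and MESP2 30 where 20.6 were. Of 20 endothelial and blood genes 0 reached the level minimum and the sum was 21.0 against 19.1 CPM (0.14, -0.043 to 0.31), of which NFATC1 gave 151 of 262 UMIs. CDH5 (VE-cadherin), CD34 and EMCN had 0 UMIs, PECAM1, FLI1, VWF and ESAM 1 each, TIE1, TAL1 and ERG 2 each, TEK and LMO2 3 each, and ETV2, the master factor of this lineage, 5 where 9.53 were expected. SOX7 (24), ENG (18), GATA2 (15), CLDN5 (15), RUNX1 (11) and SOX18 (7) made up the rest. The defining markers of the labelled stem cells were present: the 10 pluripotent markers summed to 4165 CPM in KDR cells and 3832 CPM in matched cells. POU5F1 alone gave 1327 and 1109 CPM of these sums, so most of the difference between them is POU5F1's.

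The genes highest in KDR cells included stress response, matrix, cilium and membrane genes. IER3, an immediate early gene induced by stress and growth signals, stood at 92.4 CPM (1152 UMIs) against 54.1 CPM (0.77, 0.69 to 0.85), with decile ratios between 0.45 and 1.65. C9orf135, a membrane protein gene of pluripotent cells, stood at 23.8 against 14.3 CPM (0.74, 0.57 to 0.90). The orphan receptor gene GPR176 stood at 53.7 against 32.8 CPM (0.71, 0.60 to 0.82). These 3 were above 0 in all 10 deciles. Matrix genes followed: MMP16, a membrane-bound matrix metalloproteinase (21.5 against 14.5 CPM, 0.57), NID1 or nidogen of the basement membrane (21.3 against 14.5 CPM, 0.55) and FN1 or fibronectin (48.0 against 33.3 CPM, 0.53). Cilium genes were WDR60, a part of dynein-2 (29.8 against 20.4 CPM, 0.55), and BBS9 of the BBSome (139 against 96.9 CPM, 0.52, 0.45 to 0.59). The others were the noncoding AC093866.1 (0.57), FAM171B (0.57), SRD5A3, NMU, RHOBTB3, an atypical small GTPase gene (0.53), the protocadherin FAT3 (0.53) and MACROH2A2, a histone variant (0.51). AC093866.1 is an antisense RNA, and RHOBTB3 overlaps GLRX (2277 UMIs over all hPSC barcodes) on the other strand; the strand setting of the counting is not given in the sources used here, so such reads cannot be told apart.

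The genes lowest in KDR cells included noncoding RNAs and forebrain genes. RIPPLY3, a co-repressor of T-box factors, stood at 31.5 CPM (393 UMIs) against 57.1 CPM (-0.86, -1.0025 to -0.71), below 0 in all 10 deciles. The noncoding AC012645.1, antisense to YPEL3 (3990 UMIs over all hPSC barcodes), stood at 21.3 against 38.3 CPM (-0.85, -1.02 to -0.67). LINC00458, a noncoding RNA abundant in pluripotent cells, stood at 97.9 against 162 CPM (-0.73, -0.81 to -0.65). The pseudogenes LRRC37A11P (15.2 against 26.3 CPM, -0.78) and ZNF826P (55.8 against 79.6 CPM, -0.51) were also lower; both belong to families of similar genes, so their counts are uncertain. Next came SIX3 (-0.61) and ZIC1 (-0.56), described below, and CCN2, a secreted matrix-linked protein gene, at 19.7 against 27.4 CPM (-0.48, -0.66 to -0.30). The last of the 15 were DPPA5 (-0.46), the neuronal microtubule gene STMN2 (-0.45), RBBP8 of DNA end repair (-0.43), the centrosome gene CEP85L (-0.42), CHN1 (-0.40), NHSL1 (-0.40) and FGFBP3, which binds FGF ligands (54.6 against 72.0 CPM, -0.40). NHSL1 overlaps HEBP2 (6213 UMIs) on the other strand.

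Pluripotency genes were mostly level. Of 20 core genes 18 reached the level minimum, and 1 was higher, 0 lower (median 0.0071). The one was DPPA2, at 25.8 against 20.3 CPM (0.35, 0.18 to 0.50), above 0 in 9 of 10 deciles. POU5F1, the central factor of pluripotency, stood at 1327 against 1109 CPM (0.26, 0.24 to 0.28) and PODXL, a surface sialomucin, at 312 against 261 CPM (0.26, 0.21 to 0.30); both were above 0 in all 10 deciles and short of the size rule. NANOG stood at 190 against 176 CPM (0.11), SOX2 at 233 against 232 CPM (0.0029) and MYC at 96.7 against 105 CPM (-0.12). ZSCAN10 was the lowest of the 18 (-0.17). Of the naive state genes, 3 of 12 reached the level minimum: DPPA5 was lower, at 48.9 against 67.1 CPM (-0.46, -0.57 to -0.34), with NR5A2 at -0.053 and TFAP2C at 0.088. KLF4 had 29 UMIs with a ratio of 0.70, and KLF2 and KLF17 had 0 UMIs.

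SIX3 and ZIC1 were lower in KDR cells, and the other 2 neural genes tested were not. SIX3, a homeobox gene of the early forebrain, stood at 30.2 against 45.9 CPM (-0.61, -0.76 to -0.46) and was counted in 15.3% of KDR cells against 23.1% of matched cells. ZIC1 stood at 24.1 against 35.6 CPM (-0.56, -0.73 to -0.40); it lies head to head with ZIC4, which it overlaps. These were the 2 lower genes among 4 tested of 16 in the neural list (median -0.32), and ZIC2 (0.079) and NES (-0.079) were called neither. The share called lower over all tested genes was 0.759%. Below the level minimum, SIX6 had 78 UMIs where 182 were expected (-1.22, -1.56 to -0.90), OTX2 40 where 60.2 were (-0.59, -1.08 to -0.15), LHX5 21 where 40.1 were (-0.93, -1.62 to -0.32) and SOX1 3 where 8.47 were. The 6 neural ectoderm markers together stood at 39.5 CPM in KDR cells and 59.3 CPM in matched cells (-0.59, -0.72 to -0.46). SIX3 gave 376 of their 492 UMIs, and 573 of the 739 expected, so this sum mostly repeats SIX3. All 16 genes of the neural list summed to 383 against 413 CPM (-0.11, -0.15 to -0.069). The genes named here below the level minimum were all low, and the other members there are not listed. The named ones therefore do not stand for the whole list. Cells were also ranked within deciles into quintiles (5 groups) by the sum of the neural list. Across these the share of KDR cells ran from 11.9% to 15.7% and was not ordered. The lowest quintile held 3035 cells at a median of 4867 UMIs and the next 2516 cells at 5300. Since the share of KDR cells followed depth, these shares are not compared at like depth.

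Members of the TGF-beta family pathways differed in direction. SKIL, a feedback repressor of SMAD signalling, was higher at 185 against 134 CPM (0.46, 0.40 to 0.52), above 0 in 10 of 10 deciles, and was the one call among 9 tested of 17 Nodal and TGF-beta genes (median 0.071). FOXH1, the DNA-binding partner of SMADs, stood at 0.23 and the activin receptor ACVR2B at 0.16, while NODAL itself stood at 23.9 against 26.8 CPM (-0.16, -0.33 to 0.00066). LEFTY1 had 66 UMIs where 89.5 were expected. Of 6 BMP genes tested, ID2 was higher at 151 against 118 CPM (0.36, 0.29 to 0.42) and ID3 lower at 200 against 256 CPM (-0.35, -0.41 to -0.29). For all tested genes the shares were 1.77% higher and 0.759% lower. ID1, which like them encodes an inhibitor of bHLH factors, stood at 119 against 134 CPM (-0.17). ID3 was counted in 56.8% of KDR cells against 67.0% of matched cells.

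Of 17 p53 target genes tested, 4 were higher and 0 lower (median 0.064), where 1.77% of all tested genes were higher and 0.759% lower. TP53INP1 stood at 26.1 against 19.4 CPM (0.43), ZMAT3 at 75.8 against 57.7 CPM (0.39), BTG2 at 25.3 against 19.7 CPM (0.36) and RRM2B, a ribonucleotide reductase subunit, at 166 against 133 CPM (0.32, 0.26 to 0.38). CDKN1A, the cell cycle inhibitor, stood at 0.077, MDM2 at 0.064 and BBC3 at -0.27. IER3 was the one call among 7 immediate early genes tested (median 0.0059), with FOS at 0.13, JUN at 0.0059 and IER2 at -0.029. Outside the lists, the laminin chain LAMC1 (55.7 against 41.4 CPM, 0.43), the collagen chain COL6A2 (21.2 against 16.3 CPM, 0.37) and the glypicans GPC6 (0.45) and GPC4 (0.37) were higher as well, beside FN1 and NID1; they were picked from the 105 after their values were seen.

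S phase genes were slightly low and G2 and M phase genes slightly high, with 0 calls in 18 and 21 tested. Over all tested genes 2.53% were called, so 0 calls here lies near that share. The S phase median was -0.12, with 3 of 18 above 0, and CLSPN (-0.26), MCM7 (-0.23) and MCM4 (-0.20) at the low end. DUT, a nucleotide-pool enzyme outside the list, was lower at 511 against 644 CPM (-0.33, -0.37 to -0.30). The G2 and M phase median was 0.11, with 17 of 21 above 0 and HMMR highest (0.27). Across quintiles of cells ranked by their S phase sum within deciles, the share of KDR cells went from 17.2% in the lowest quintile to 10.4% in the highest. Across quintiles by the G2 and M phase sum it stayed between 12.3% and 14.4%. With matching on tertiles of the G2 and M phase sum as well, 100 genes were higher and 44 lower. Matching on the S phase sum, along which the share of KDR cells did change, was not tried. These counts therefore do not show what S phase contributes.

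Other pathways held no call. Each of these pathway lists is small, so 0 calls lies near the 2.53% called over all tested genes. Tested and called were 15 and 0 FGF and ERK genes (median 0.079; FGFR2 0.26, FGF13 -0.23), 10 and 0 receptor tyrosine kinases (0.037; ERBB2 -0.28, DDR1 0.14) and 9 and 0 WNT genes (-0.031; TCF7L2 0.23). The same held for 6 Notch genes (0.024), 13 hypoxia and glycolysis genes (0.043; SLC2A1 0.28), 11 heat shock and ER stress genes (0.012), 13 cholesterol genes (0.00021) and 17 cytoskeleton and adhesion genes (0.072; ITGB1 0.29, MYL9 -0.30). Of 10 endoderm, 7 neural crest and 11 amnion and trophectoderm genes 0 reached the level minimum, with 113, 172 and 302 UMIs in sum where 139, 175 and 294 were expected; SOX17, FOXA2 and GATA6 had 0 UMIs. In the list of genes that vary with signalling state in hPSC, 10 of 13 were tested and the median was -0.14, with SIX3 and ID3 the 2 lower and NTS at -0.11. Mitochondrially encoded RNA made up 4.55% of UMIs in the mean KDR cell and 4.28% in matched cells, with 11 of 12 tested genes above 0 (median 0.069). After matching on tertiles of this share 104 genes were higher and 40 lower. EGFP stood at 4086 against 4309 CPM (-0.077).

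For the called genes, median ratios were larger in size in cells with more KDR UMIs. The median ratio of the 105 higher genes was 0.33 in cells with 1 KDR UMI, 0.51 in the 281 cells with 2 and 0.61 in the 93 cells with 3 or more, and that of the 45 lower genes was -0.32, -0.58 and -0.60. Since the 1-UMI cells weigh most in choosing these genes, this is a description. IER3 stood at 86.1, 110 and 130 CPM in the 3 classes, with ratios of 0.67 (0.57 to 0.77), 1.02 (0.82 to 1.22) and 1.25 (0.95 to 1.54). SKIL stood at 178, 187 and 272 CPM (0.41, 0.48 and 1.02) and ID2 at 144, 161 and 218 CPM (0.29, 0.46 and 0.87). FLT1 stood at 36.2, 45.0 and 45.7 CPM (0.25, 0.56 and 0.59). LINC00458 stood at 106, 75.2 and 47.0 CPM (-0.61, -1.11 and -1.81), AC012645.1 at 22.8, 18.0 and 10.8 CPM and SIX3 at 31.8, 27.0 and 16.1 CPM. Not all genes were ordered. NMU went from 0.54 and 0.77 to -0.021 in the highest class, C9orf135 stood at 0.73, 0.89 and 0.48, and of the 105 higher genes 51 had ratios in the order of the classes, as did 16 of the 45 lower genes in the other direction.

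**Figure D3:**
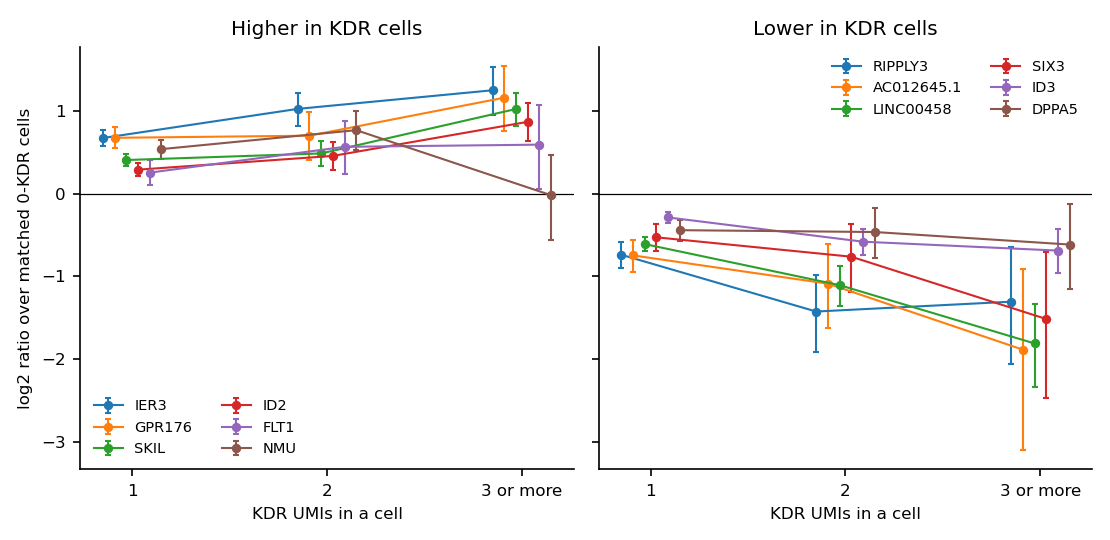
log2 ratio over matched 0-KDR cells (vertical axis) in hPSC cells with 1, 2 and 3 or more KDR UMIs (horizontal axis) for 6 genes higher and 6 genes lower in KDR cells, with 95% counting intervals; points are shifted sideways for legibility. IER3 goes from 0.67 to 1.25 and LINC00458 from -0.61 to -1.81, while NMU returns to -0.021 in the highest class.

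Some called genes lay side by side on the genome. Among 480 tiles of 2 Mb with at least 5 tested genes, 73 held a call and 2 held 3 or more in 1 direction. The stretches described here were drawn around those tiles after the values were seen, so they are given as a description. On chromosome 6, from HLA-E to PBX2 (30489467 to 32190186), 12 of 28 tested genes were higher, 0 lower and 25 above 0, with a median of 0.28, against -0.013 over 19 tested genes within 2 Mb on either side. IER3 lies in it, as do HLA-E (30.6 against 22.2 CPM, 0.46), FLOT1 of membrane rafts (45.7 against 34.1 CPM, 0.43), TUBB, a beta-tubulin (2167 against 1732 CPM, 0.32), CLIC1 (265 against 212 CPM, 0.32) and VARS1, the valyl-tRNA synthetase (30.6 against 23.3 CPM, 0.39). POU5F1 is in the same stretch with its ratio of 0.26. EHMT2 (-0.00014), NELFE (-0.012) and HSPA1B (-0.018) stood near 0 within it. On chromosome 19, from STRN4 to NOP53 (46719507 to 47757058), 4 of 9 tested genes were lower, 0 higher and 9 below 0, with a median of -0.29, against -0.015 over 37 tested genes beside it. AP2S1, an adaptor of clathrin coats, stood at 229 against 300.4 CPM (-0.39, -0.44 to -0.34), the glutamine transporter SLC1A5 at 57.8 against 73.8 CPM (-0.35), TMEM160 at 68.5 against 86.7 CPM (-0.34) and STRN4 at 16.8 against 21.2 CPM (-0.33). SAE1 (-0.29) and the p53 target BBC3 (-0.27) fell short of the rule.

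**Figure D4:**
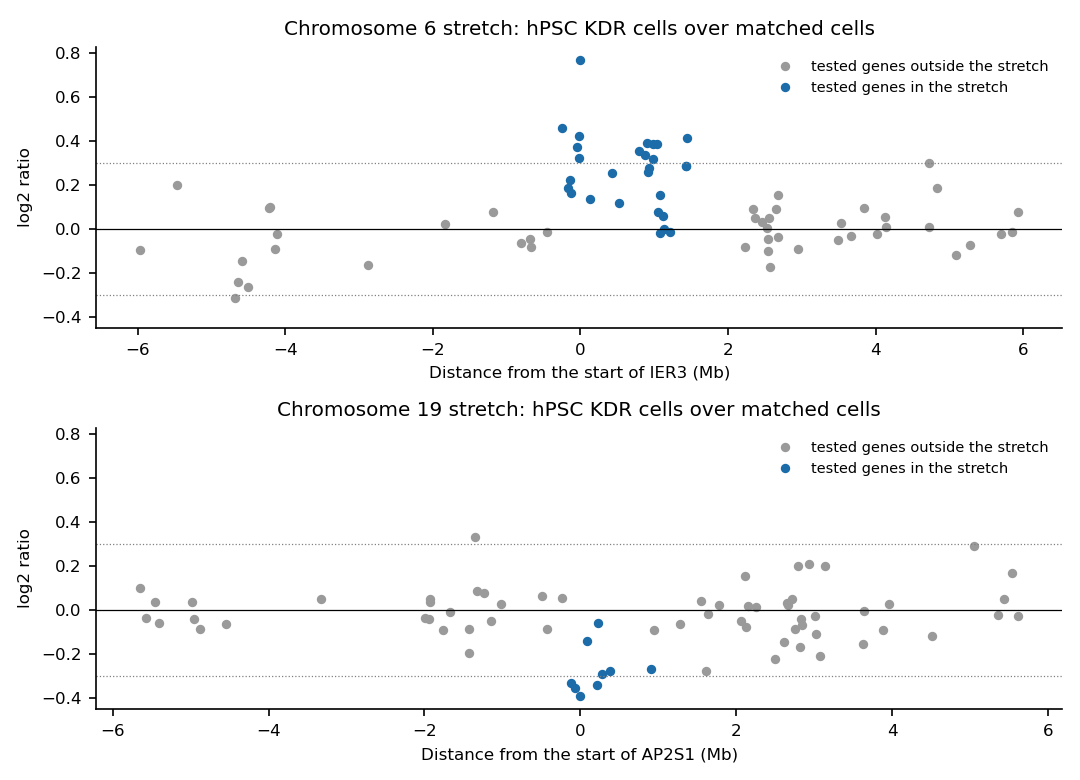
log2 ratio in hPSC KDR cells (vertical axis) of tested genes within 6 Mb of IER3 on chromosome 6 (top) and of AP2S1 on chromosome 19 (bottom), by the distance between gene starts in Mb. Blue points lie in the stretches described in the text, with medians of 0.28 and -0.29, grey points outside them, and dotted lines mark 0.3 in size.

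The summed level of these stretches varied with KDR across cells. A few genes weigh most in these sums. In matched cells TUBB stood at 1732 CPM and POU5F1 at 1109 CPM, where the chromosome 6 sum averaged 4294 CPM in the middle quintile. AP2S1, at 300.4 CPM, was the largest part of the chromosome 19 sum, which averaged 758 CPM there. The ranking of cells by the chromosome 6 sum thus rests mainly on TUBB and POU5F1. When cells were ranked within deciles by the chromosome 6 sum, the share of KDR cells was 6.08%, 7.50%, 10.2%, 17.6% and 25.9% from the lowest to the highest quintile, and KDR itself stood at 11.9 CPM in the lowest and 59.2 CPM in the highest quintile. By the chromosome 19 sum the shares ran the other way, from 22.0% in the lowest quintile to 7.15% in the highest, with KDR at 50.7 and 14.3 CPM. Median depth was between 5036 and 5042 UMIs in all of these quintiles. The stretches were drawn around genes that differed between KDR cells and matched cells, so these spans are a description. Across quintiles by p53 targets the share went from 11.0% to 15.5% and by mitochondrially encoded RNA from 11.6% to 16.4%. Within KDR cells the chromosome 6 median was 0.24 in cells with 1 KDR UMI, 0.37 with 2 and 0.36 with 3 or more, and the chromosome 19 median was -0.24, -0.36 and -0.54. The stretches held 12 of the 105 higher and 4 of the 45 lower genes, and the other 93 and 41 lay elsewhere.

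The amplicon table let KDR cells be counted by the guide a cell carried. Cells with exactly 1 guide at 20 or more amplicon UMIs were used, 2657 in all, of which 391 were KDR cells (14.7%, 13.4% to 16.1%) where their depths predicted 384. KDR was not among the 113 targets. Non-targeting guides gave 20 KDR cells of 195 (10.3%, 6.38% to 15.4%) where 28.6 were predicted, and all targeting guides 371 of 2462 (15.1%, 13.7% to 16.5%). The 2 intervals overlap. Among 50 targets with 20 or more cells the share ran from 2.86% for PSPH (1 of 35, 0.0723% to 14.9%) to 28.9% for KRT34 (11 of 38, 15.4% to 45.9%). The intervals of KRT34, a hair keratin gene, and of ACACA, the acetyl-CoA carboxylase of fatty acid synthesis (12 of 43, 27.9%, 15.3% to 43.7%), lay above the share of all assigned cells, and 0 lay below it. Both targets were picked from the end of 50, and their guides were unequal: guide KRT34-3 gave 10 of 26 cells and KRT34-2 gave 1 of 12, ACACA-2 gave 8 of 21 and ACACA-1 gave 1 of 14. Of targets in the stretches, POU5F1 guides gave 4 KDR cells of 28 and VARS guides 6 of 45, near the 4.14 and 5.76 predicted. Smaller targets there were CLIC1, with 5 of 17 where 2.27 were predicted, and ABCF1, with 2 of 7 where 1.19 were. SAE1 had 0 of 15 where 2.38 were predicted, which allows a share of up to 21.8% (exact upper bound).

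**Figure D5:**
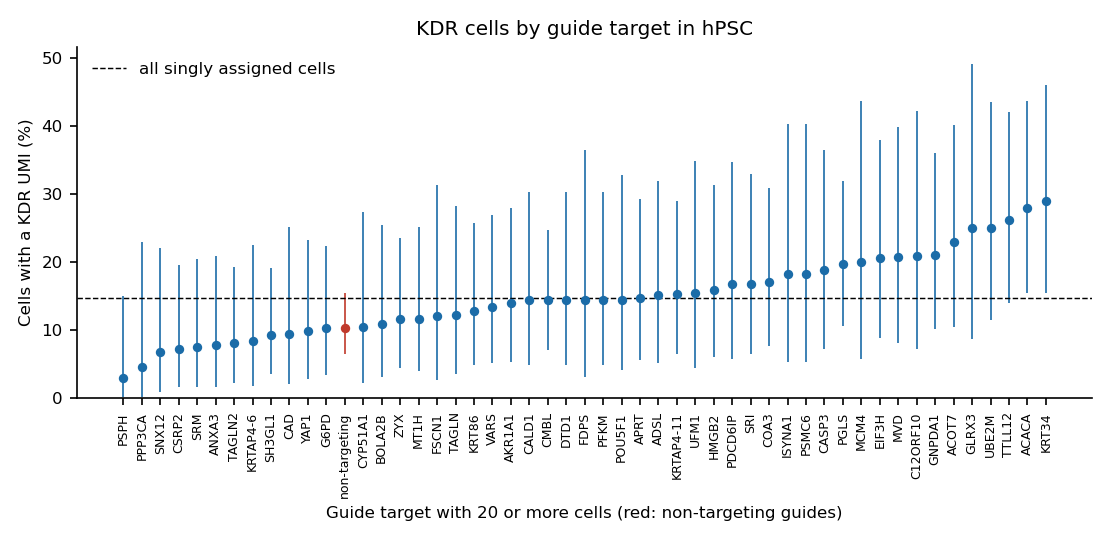
Percent of hPSC cells with a KDR UMI (vertical axis) for each guide target with 20 or more singly assigned cells, in order of that share, with exact 95% intervals; non-targeting guides are in red and the dashed line is the share of all singly assigned cells, 14.7%. Most intervals cross the line, and those of ACACA and KRT34 at the right end lie above it.

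The same contrast in ectoderm rested on 254 KDR cells. There 409 of 6023 tested genes met the size rule as higher (6.79%) and 182 as lower (3.02%), and the counts behind them were small, with a median of 57 UMIs per gene in ectoderm KDR cells for the genes higher in hPSC. Of the 105 genes higher in hPSC KDR cells, 79 (75.2%) had an ectoderm ratio above 0, as had 54.4% of all 5931 genes, and their ectoderm median was 0.15. Of the 45 lower genes, 32 (71.1%) lay below 0, as did 45.6% of all, with a median of -0.13. RIPPLY3 stood at -0.24 (-0.33 to -0.15; 1045 UMIs), SIX3 at -0.23 (-0.34 to -0.13; 777 UMIs), AC012645.1 at -0.53 (-0.97 to -0.13) and RHOBTB3 at 0.49 (0.19 to 0.79). SKIL stood at 0.43 and FLT1 at 0.46, on 75 and 42 UMIs. No interval is given for either, so whether counting error reaches 0 is not shown. IER3 (-0.066, -0.98 to 0.71; 13 UMIs), GPR176 (0.016, -0.22 to 0.24; 158 UMIs) and ZIC1 (-0.015, -0.19 to 0.16; 274 UMIs) stood near 0. The chromosome 6 stretch had a median of 0.020 in ectoderm, with 16 of 28 genes above 0, and the chromosome 19 stretch -0.10, with 7 of 9 below 0. Whether any of these values differs between the libraries was not tested.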

How the data were processed

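The deposited matrices hold UMI counts per gene and cell barcode for 60674 features. The submitters' processing notes name STAR, STARsolo and GRCh38. Tool versions, gene annotation and the handling of strand were not given in the sources used here. For guides, the deposited amplicon table lists 1 read per line with the authors' guide name; the hPSC table held 1048575 reads and may be part of a longer one. In its read 1, 16 bases were taken as cell barcode and 12 as UMI; the labels name 10x v2 chemistry, whose UMI is shorter, so the amplicon UMI counts behind the guide calls are in doubt. Cells were kept and KDR cells defined as above; 1471 hPSC and 3062 ectoderm barcodes were left out, and doublets were not removed. Counts of a set of cells were summed and scaled to CPM; expected counts came from 0-KDR cells of the same 10 deciles of total UMIs (Python 3.11.15, numpy 2.4.6, scipy 1.17.1, pandas 2.3.3). These steps were tested on simulated counts. Named genes are the 15 highest and 15 lowest ratios at 20 CPM or more, leaving out KDR, mitochondrially encoded, ribosomal and transgene features; all members of 5 lists on KDR; and up to 3 from each end of the other lists, 27 in all. Other genes named were chosen after their values were seen. The members and lists were chosen with earlier results of these data known. Positions are from GENCODE 29. The alternatives tried were bins, filters, scaling, weighting, matching and membership. Results for a few genes are not reported here.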

Additional observations from a re-analysis of the deposited data

How the results depend on the processing

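Each of the 34 genes followed kept the sign of its ratio under 12 alternatives: other bins, no matching, other filters on UMIs and mitochondrial RNA, another scaling, equal weight per cell, leaving out the deepest decile or shared barcodes, matching also on G2 and M phase or mitochondrial RNA, and members with 2 or more KDR UMIs. Most of these genes were the 15 highest and 15 lowest ratios, and every alternative reused the same library. The kept signs are therefore a description and no independent check. The matching on mitochondrial RNA and the removal of shared barcodes were chosen after seeing the data. The other scaling factor differed by -0.000911 on the log2 scale. Counts by size moved by over 1.5 times under 5 settings; apart from those that change the rule itself, the cause was not tested. With members of 2 or more KDR UMIs (374 cells) 556 genes were higher and 314 lower. Without the deepest decile the counts were 158 and 74, at 50 CPM or more 29 and 19, and at 5 CPM or more 450 and 224. At a log2 ratio of 0.5 there were 15 and 7. The set of 374 cells carries more counting error than all KDR cells together. FLT1 fell short of the size rule with cells weighted equally (0.29). For the other alternatives the counts stayed within 1.5 times of 105 and 45. The share of KDR cells was 7.75% with each cell thinned to 3000 UMIs, 17.3% in cells with at least 5000 UMIs and 12.8% with at least 1000. The share for non-targeting guides was 10.0% with guides called at 10 UMIs. Depth limits the genes below 20 CPM, where most of the VEGF, mesoderm and vessel genes lie. No paired analysis was possible because each state is 1 library and no result comes from a test.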

Other observations

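Outside the lists, some genes known from neurons were called in KDR cells, in both directions. The neurofilament gene NEFL stood at 41.9 against 33.0 CPM (log2 ratio 0.34) and the growth-cone gene GAP43 at 24.1 against 19.1 CPM (0.33). The neural POU factor gene POU3F1 was lower at 24.1 against 29.9 CPM (-0.31, 95% counting interval -0.48 to -0.15). VASH2, a member of the vasohibin family, stood at 371 against 299.6 CPM (0.31, 0.27 to 0.35) and was above 0 in 10 of 10 deciles. PROM1, which encodes the surface antigen CD133, stood at 22.8 against 17.5 CPM (0.38).

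Chromatin and nuclear RNA genes were also among those higher: the Polycomb partner BCOR (37.6 against 27.3 CPM, 0.46), the H3K27 demethylase KDM6B (21.6 against 15.7 CPM, 0.46), the deacetylase SIRT1 (36.6 against 27.8 CPM, 0.39) and the noncoding RNAs MIAT (0.50) and NEAT1 (319 against 249.5 CPM, 0.35). ERVH48-1, a transcript of an endogenous retrovirus, stood at 36.1 against 28.2 CPM (0.36). Among those lower, the osteopontin gene SPP1 stood at 39.6 against 50.5 CPM (-0.35), WFDC2 at 205 against 252 CPM (-0.30) and the polyamine enzyme gene ODC1 at 32.4 against 42.5 CPM (-0.39). All of these genes were chosen after their values were seen, from the 105 and 45 called by size.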
